A study of Rattus norvegicus with 30 samples.

Results

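Dll4, Jag1, Notch1, Notch4, Hes1, Hey1, Sox7, Sox17, Sox18 and Hhex were followed in bulk RNA from rat dorsal hippocampus. They are 10 of the 17455 rows of the deposited count table, and all 10 had enough counts to be tested. The members were set by symbol, as vascular Notch ligands, receptors and targets, the SoxF transcription factors and a homeobox factor. Dll4, Sox18 and Hhex were chosen by their values in these same libraries, for diet effects of opposite sign in the 2 sexes. Their diet values are therefore a description with no test, and only the other 7 members are tested for diet and for diet by sex.

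The 30 libraries were of alzheimer genotype, which here means the TgF344-AD rat, or wildtype, and the rats ate a western diet or chow. TgF344-AD rats carry human transgenes, APP among them, with mutations of familial Alzheimer's disease under the mouse prion promoter. The female groups held 3 alzheimer western, 4 alzheimer chow, 3 wildtype western and 4 wildtype chow libraries. The male groups, alzheimer western, alzheimer chow, wildtype western and wildtype chow, held 4 libraries each. The labels name 2 cohorts: cohort 2 has 16 libraries, 2 in every group, and cohort 1 has 14, with 1 library in each of the 2 female western groups. The sources used here state neither ages, diet lengths nor whether each library is a separate animal, so p-values measure the spread between libraries. Total counts ran from 13931152 to 31418405 a library. App, whose row can also take reads of the human transgene, averaged 3294 ± 76.3 CPM, counts scaled to a common library total, over the 15 alzheimer libraries and 1672 ± 52.7 CPM over the 15 wildtype ones (SD), and the groups did not overlap. Of the 32 endothelial identity markers examined, 31 had a row and none was at 0 in every library, so RNA of endothelial cells was present in these samples. In bulk tissue, fewer cells of a type and less RNA per cell cannot be told apart.

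Notch signalling passes between touching cells. A ligand on one cell, such as Dll4 or Jag1, pulls on a receptor on its neighbour, the receptor is cut by ADAM10 and gamma-secretase, and its inner part joins RBPJ in the nucleus to switch on Hes and Hey repressor genes. In growing vessels Dll4 on tip cells restrains the neighbouring stalk cells, and in arteries Dll4 and Notch1 help to set arterial identity. The SoxF factors Sox7, Sox17 and Sox18 act in endothelial cells upstream of and beside Notch, and Hhex is a homeobox repressor of early endothelial and blood development.

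Promoter sequences are shown for Hhex, as a gene picked for its diet pattern, and for Jag1 and Hes1, as the other Notch ligand and a direct Notch target that did not pass the diet-by-sex test. The RefSeq promoter table (GRCr8) matched 5 of the 10 members: Hhex, Jag1, Notch1, Notch4 and Hes1. Each sequence is the 250 bases before the annotated start, 5′ to 3′ on the gene's strand, at chr1:244602695-244602944 (plus strand) for Hhex, chr3:144894884-144895133 (minus strand) for Jag1 and chr11:84213046-84213295 (minus strand) for Hes1. Capitals mark matches on either strand to the motifs searched. These were TGGGAA, the core of the RBPJ site, ATTGTT for SOX factors, CAGGAAG for ETS factors, CACGTG and also CACGCG as boxes of HES and HEY repressors, GGGCGG for SP1, and TATAAA. The motif of RBPJ and that of ETS factors both hold the letters GGAA.
Hhex: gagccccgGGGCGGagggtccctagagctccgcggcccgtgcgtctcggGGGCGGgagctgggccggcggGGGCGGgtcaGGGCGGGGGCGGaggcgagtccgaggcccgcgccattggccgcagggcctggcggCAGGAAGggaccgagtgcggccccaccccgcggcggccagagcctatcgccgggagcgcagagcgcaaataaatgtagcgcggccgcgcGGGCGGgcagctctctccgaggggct
Jag1: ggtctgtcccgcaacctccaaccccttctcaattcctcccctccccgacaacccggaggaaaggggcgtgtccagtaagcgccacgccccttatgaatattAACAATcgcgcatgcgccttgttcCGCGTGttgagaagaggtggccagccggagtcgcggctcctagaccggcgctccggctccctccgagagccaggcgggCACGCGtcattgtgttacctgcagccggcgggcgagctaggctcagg
Hes1: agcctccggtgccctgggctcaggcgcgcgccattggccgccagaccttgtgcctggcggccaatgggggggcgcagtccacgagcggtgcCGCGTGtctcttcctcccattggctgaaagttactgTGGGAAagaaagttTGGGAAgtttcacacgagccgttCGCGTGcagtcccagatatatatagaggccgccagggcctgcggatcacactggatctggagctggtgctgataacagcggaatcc
The Hhex window held 6 GGGCGG and 1 CAGGAAG, the Jag1 window 2 CACGCG and 1 ATTGTT, and the Hes1 window 2 TGGGAA and 2 CACGCG. The Notch4 window held 2 TGGGAA and the Notch1 window 4 GGGCGG. Among 33469 promoter windows of the same length, 22.1% held the RBPJ core, 10.3% the SOX motif, 10.2% the ETS motif, 5.59% the first HES and HEY box and 7.14% the second, 30.5% the SP1 motif and 12.9% the TATA motif. A match is a string of letters and was not examined for binding.

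Among the ligands, Dll4 was lower on the western diet in females and higher on it in males. In female western libraries Dll4 ran from 3.39 to 5.82 CPM with a median of 3.80, against 4.31 to 7.68 CPM with a median of 5.32 in female chow libraries. In male western libraries it ran from 4.59 to 8.59 CPM with a median of 5.76, against 3.01 to 4.43 CPM with a median of 3.85 in male chow libraries. The male groups did not overlap; of 12547 genes tested, 3 (0.0239%) had male diet groups that did not overlap, and since Dll4 was picked for this contrast nothing is read from it. The female groups overlapped through 2 western libraries, alzheimer replicate 11 at 4.38 CPM and wildtype replicate 17 at 5.82 CPM. Of the 6 female western libraries 5 lay below the female chow mean, and all 8 male western libraries lay above the male chow mean.

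**Figure D1:**
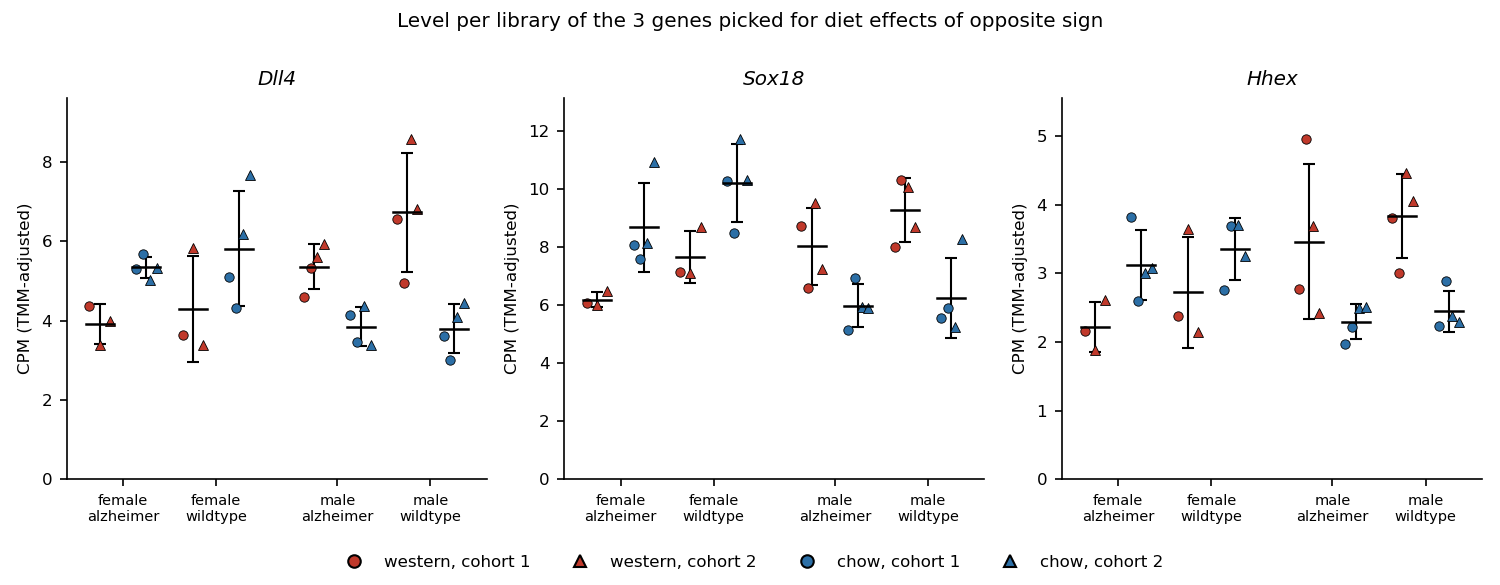
Level of Dll4, Sox18 and Hhex in CPM (vertical axes, starting at 0) in each library by sex, genotype and diet, western left of chow; circles are libraries of cohort 1 and triangles of cohort 2, and bars the group mean with its SD. For each gene the female western libraries lie low against female chow, and the male western libraries high against male chow.

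The SoxF factor Sox18, which acts in blood and lymphatic endothelium, had the same 4-group pattern. Its level ran from 6.0 to 8.69 CPM (median 6.80) in female western libraries and from 7.57 to 11.7 CPM (median 9.39) in female chow libraries. It ran from 6.58 to 10.3 CPM (median 8.72) in male western libraries and from 5.12 to 8.27 CPM (median 5.90) in male chow libraries. The groups of each sex overlapped, in males through the chow libraries alzheimer replicate 8 at 6.92 CPM and wildtype replicate 29 at 8.27 CPM. All 6 female western libraries were below the female chow mean, and all 8 male western libraries were above the male chow mean.

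Hhex, the least counted of the 3 at 33 to 121 counts a library, ran from 1.88 to 3.64 CPM (median 2.27) in female western and from 2.60 to 3.82 CPM (median 3.16) in female chow libraries. In male western libraries it ran from 2.42 to 4.97 CPM (median 3.75), and in male chow libraries from 1.97 to 2.89 CPM (median 2.33). Both pairs overlapped. Of the 6 female western libraries 5 lay below the female chow mean, and all 8 male western libraries lay above the male chow mean.

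The 4 groups fell into the same high and low pair for each of the 3 genes. Since the genes were picked for diet effects of opposite sign in the 2 sexes, a crossed pattern follows from the pick. The pairing is a description and no separate support. Dll4 averaged 6.04 ± 1.28 CPM in male western (n = 8), 5.58 ± 1.0 CPM in female chow (n = 8), 4.10 ± 0.927 CPM in female western (n = 6) and 3.81 ± 0.517 CPM in male chow libraries (n = 8), with SDs over libraries. Sox18 averaged 9.44 ± 1.56 CPM in female chow, 8.65 ± 1.32 CPM in male western, 6.92 ± 0.998 CPM in female western and 6.11 ± 1.03 CPM in male chow libraries. Hhex averaged 3.65 ± 0.869 CPM in male western, 3.24 ± 0.461 CPM in female chow, 2.47 ± 0.625 CPM in female western and 2.37 ± 0.273 CPM in male chow libraries. In every case the means of the high pair, male western and female chow, lay closer together than the SD of either group, and so did those of the low pair, female western and male chow.

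In the fit over all libraries with group and cohort as terms, the western minus chow difference of Dll4 was -0.48 ± 0.129 in females and 0.65 ± 0.120 in males (log2 fold change ± SE), and the female minus male difference between them was -1.12 ± 0.176. For Sox18 the values were -0.47 ± 0.105 in females, 0.49 ± 0.099 in males and -0.97 ± 0.144 between the sexes. For Hhex they were -0.42 ± 0.16, 0.62 ± 0.148 and -1.04 ± 0.218. A difference of -1 between the sexes means that the western to chow ratio in females is 1 log2 unit below that in males.

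Both genotypes carried the pattern. Dll4, Sox18 and Hhex were picked for it in these same libraries. Splitting the libraries by genotype or by cohort is therefore a description and no separate support. Dll4 differed by diet by -0.50 in alzheimer females, -0.46 in wildtype females, 0.47 in alzheimer males and 0.82 in wildtype males (log2). Sox18 differed by -0.51, -0.44, 0.43 and 0.56 in the same order, and Hhex by -0.53, -0.31, 0.60 and 0.64. The female minus male difference itself differed between alzheimer and wildtype by 0.32 ± 0.351 for Dll4, 0.06 ± 0.288 for Sox18 and -0.18 ± 0.434 for Hhex, all within their SE of 0. The opposite signs in females and males were also present within each cohort, again in libraries that were used to pick the genes. Mean log2(CPM + 0.5) of Dll4 on western minus chow was -0.51 in females and 0.65 in males of cohort 2, and -0.31 in females and 0.53 in males of cohort 1. For Sox18 these differences were -0.51 and 0.46 in cohort 2 and -0.35 and 0.47 in cohort 1, and for Hhex -0.32 and 0.48 in cohort 2 and -0.41 and 0.53 in cohort 1. Cohort 1 has only 2 female western libraries.

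**Figure D2:**
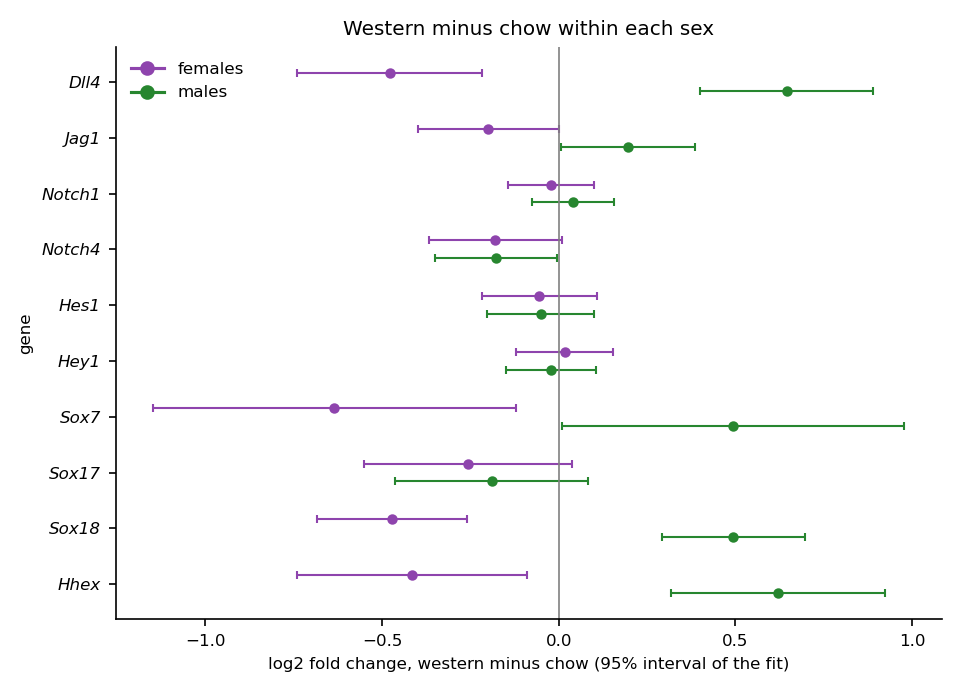
Western minus chow log2 fold change of each of the 10 genes in females and in males, with the 95% interval of the fit, females above males. Dll4, Sox18 and Hhex, picked for this pattern, and Sox7 and Jag1 lie below 0 in females and above it in males. Notch4, Sox17 and, closer to 0, Hes1 lie below 0 in both.

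None of the 7 members that were not picked passed the test of diet by sex (edgeR quasi-likelihood test, Benjamini-Hochberg adjusted over 12547 genes), where 154 genes passed, 1.23% of all tested, 0.781% with a positive and 0.446% with a negative difference. Sox7 and Jag1 had an unadjusted p under 0.05, and DESeq2 and limma-voom called 0 of the 7 as well. Jag1, the ligand that competes with Dll4 for Notch receptors in sprouting vessels, averaged 9.25 ± 1.92 CPM in female western, 10.5 ± 1.02 CPM in female chow, 9.63 ± 0.964 CPM in male western and 8.42 ± 0.873 CPM in male chow libraries. Its diet difference was -0.20 ± 0.098 in females and 0.20 ± 0.093 in males (log2 ± SE), and the difference between the sexes was -0.39 ± 0.135 with an adjusted p of 0.15. In females the sign of Jag1 depended on the cohort, with -0.38 in cohort 2 and 0.09 in cohort 1.

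Sox7, a SoxF factor of early endothelium, had few counts, 6 to 48 a library. In alzheimer females it had 1.17, 1.83 and 2.23 CPM on western and 1.52, 1.30, 1.42 and 2.53 CPM on chow, which overlapped. In wildtype females it had 0.624, 0.560 and 0.774 CPM on western and 1.19, 1.28, 2.04 and 1.57 CPM on chow. These wildtype groups did not overlap, as was so for 973 genes (7.75%) of all tested, Jag1 among them. The diet difference of Sox7 was -0.02 ± 0.317 in alzheimer females, -1.25 ± 0.385 in wildtype females, 0.46 ± 0.341 in alzheimer males and 0.53 ± 0.331 in wildtype males. Between the sexes it was -1.13 ± 0.348 with an adjusted p of 0.101. That is as large as for Dll4, which was picked for this contrast, with a larger SE. The adjusted p was 0.0425 without male wildtype chow replicate 29. It stayed above the threshold in the other 29 of 30 fits that left out 1 library, at up to 0.182. Within cohorts the Sox7 difference between the sexes was -0.65 ± 0.467 in cohort 2 and -1.68 ± 0.539 in cohort 1. Mean log2(CPM + 0.5) of Sox7 on western minus chow was 0.02 in males of cohort 2 and 0.74 in males of cohort 1. In females it was -0.46 in cohort 2 and -0.41 in cohort 1. The 3-way difference with genotype was 1.31 ± 0.691 for Sox7 and 0.49 ± 0.269 for Jag1, with an adjusted p of 0.932 for each.

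For the receptors, the direct targets and Sox17 the interval of the diet-by-sex difference held 0. That difference was -0.06 for Notch1 with a 95% interval of -0.23 to 0.11, and -0.0025 for Notch4 with -0.26 to 0.25. It was -0.0040 for Hes1 with -0.23 to 0.22 and 0.04 for Hey1, a target repressor of arterial endothelium, with -0.15 to 0.22. For Sox17, the arterial SoxF factor, it was -0.07 with an interval of -0.47 to 0.34. The adjusted p-values of these 5 lay between 0.781 and 0.997.

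**Figure D3:**
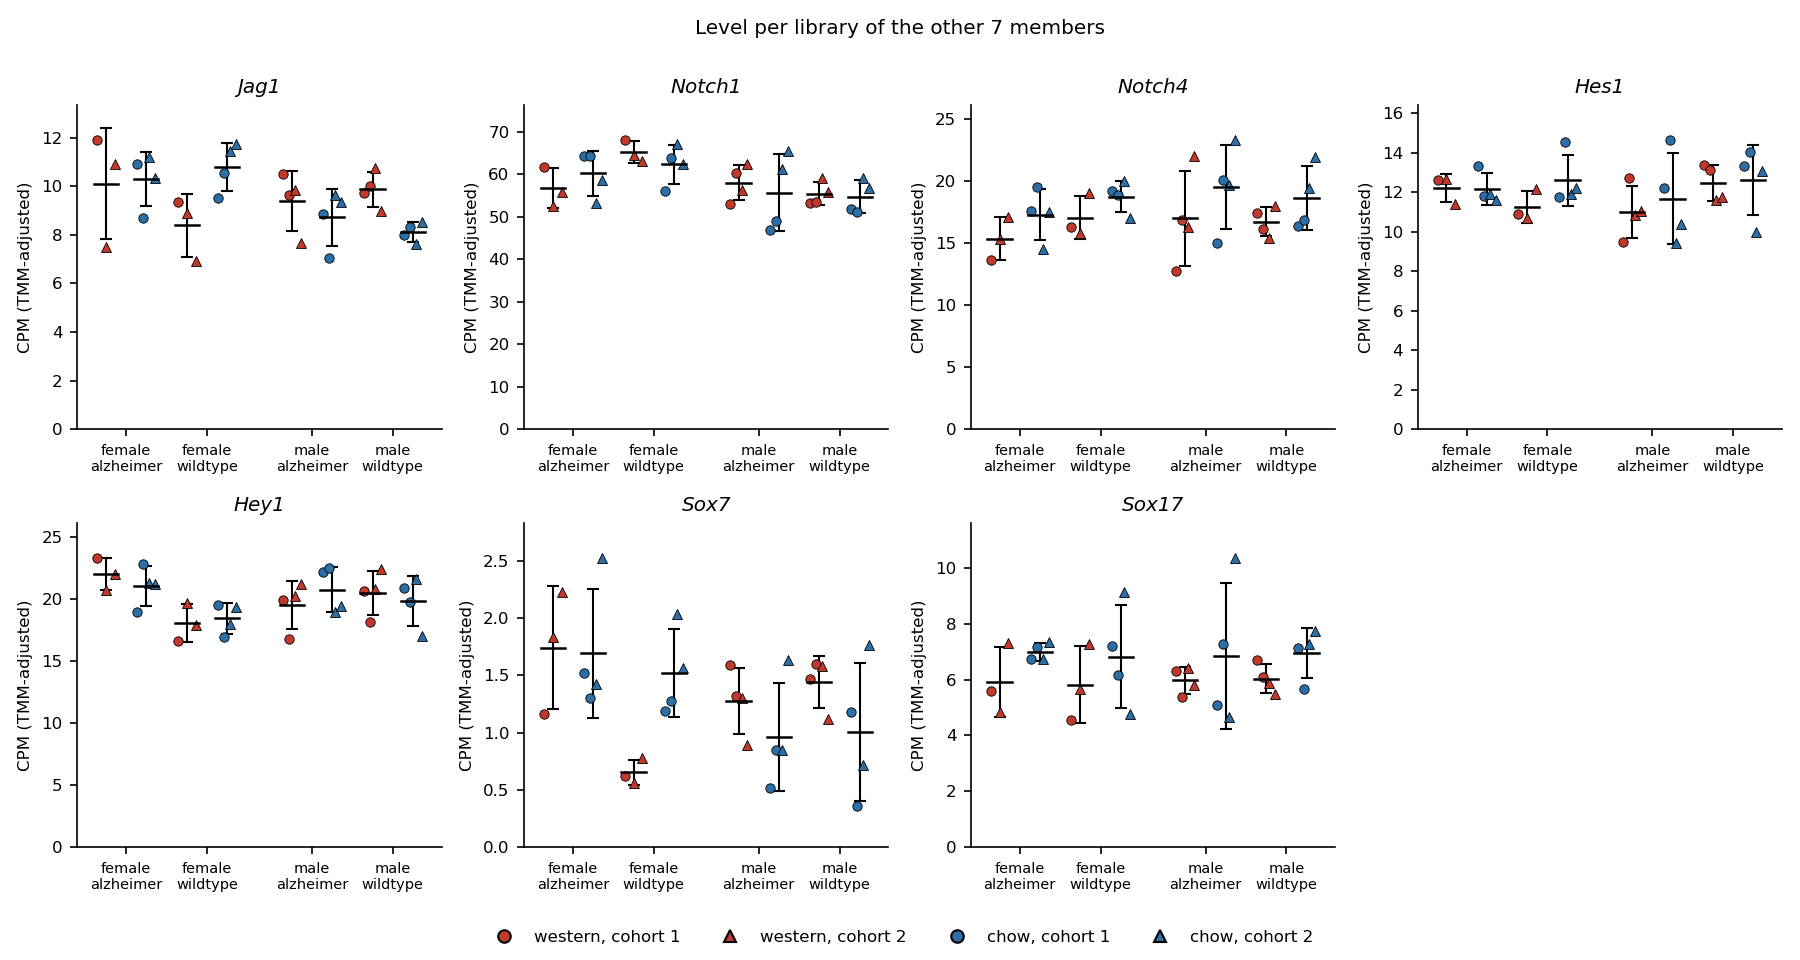
Level in CPM (vertical axes, starting at 0) of the 7 members not picked for the diet pattern in each library by sex, genotype and diet, western left of chow; circles are libraries of cohort 1 and triangles of cohort 2, and bars the group mean with its SD. With both genotypes together, western and chow overlap within each sex in each of the 7 panels.

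Notch4 and Sox17 instead leaned the same way in both sexes. Notch4, a receptor largely confined to endothelium, averaged 16.2 ± 1.82 CPM in female western and 18 ± 1.76 CPM in female chow libraries, and 16.9 ± 2.63 CPM in male western and 19.1 ± 2.84 CPM in male chow libraries. Its pooled diet difference was -0.18 ± 0.063 with an adjusted p of 0.822, and that of Sox17 was -0.22 ± 0.099 with an adjusted p of 0.848. All 8 male western libraries lay below the male chow mean for Sox17, and 7 of 8 did for Notch4. In females 4 of 6 western libraries lay below the chow mean for Sox17 and 5 of 6 for Notch4. Within cohorts the difference was as small as -0.02 for Sox17 in males of cohort 1 and -0.03 for Notch4 in females of cohort 2. Hes1 was also below 0 in both sexes, by -0.06 ± 0.080 in females and -0.05 ± 0.074 in males. No member of the 7 passed for pooled diet, a comparison in which 1 gene (0.00797%) passed in all; Notch4 and Sox17 had an unadjusted p under 0.05, and DESeq2 and limma-voom called neither.

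Genotype moved none of the 10 past the threshold when sexes and diets were pooled, in a comparison where 1007 genes (8.03%) passed by edgeR, 4.14% higher and 3.89% lower. Sox18 and Hey1 had an unadjusted p under 0.05, and DESeq2 and limma-voom also called 0 of 10; 6 of the 10 were negative and their median was -0.04, against 0.0020 over all genes. Over 15 libraries each, Sox18 averaged 7.28 ± 1.57 CPM with the alzheimer and 8.39 ± 1.94 CPM with the wildtype genotype (SD), a log2 fold change of -0.20 ± 0.072 with an adjusted p of 0.0742. The adjusted p of Sox18 was 0.0330 without male alzheimer chow replicate 8, 0.0419 without female alzheimer chow replicate 19 and 0.0418 without male wildtype chow replicate 26. It stayed above the threshold in the other 27 of 30 fits that left out 1 library, at up to 0.153. With the endothelial identity list as a covariate the Sox18 difference was -0.10 and was not called. Hey1 differed by 0.12 ± 0.046 (adjusted p 0.105) and Sox7 by 0.32 ± 0.173 (adjusted p 0.279).

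In females Hey1 was higher in alzheimer libraries. It ran from 18.9 to 23.3 CPM (median 21.3) in female alzheimer and from 16.6 to 19.7 CPM (median 18) in female wildtype libraries. The groups overlapped through a single alzheimer library at 18.9 CPM, and all 7 alzheimer libraries lay above the wildtype mean. The mean was 21.5 ± 1.46 CPM in female alzheimer and 18.3 ± 1.25 CPM in female wildtype libraries (SD, n = 7 each), a log2 fold change of 0.24 ± 0.067 with an edgeR adjusted p of 0.0482. No other member of the 10 was called there, where 322 genes (2.57%) passed. In males the mean of Hey1 was 20.2 ± 1.86 CPM for the alzheimer and 20.2 ± 1.8 CPM for the wildtype genotype (SD, n = 8 each), a log2 fold change of 0.0031 ± 0.062. In that male comparison 157 genes (1.25%) and no member passed, none with an unadjusted p under 0.05, and DESeq2 and limma-voom called no member.

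The Hey1 call stood close to the threshold. It was lost in 19 of the 30 fits that left out 1 library, with adjusted p-values of 0.0325 to 0.138 over all 30. Within cohorts the female difference was 0.19 ± 0.079 (adjusted p 0.326) in cohort 2 and 0.34 ± 0.109 (adjusted p 0.276) in cohort 1, and with the endothelial identity list as a covariate it was 0.15 ± 0.080 (adjusted p 0.639). The female minus male difference of the genotype effect was 0.23 ± 0.091 for Hey1 with an adjusted p of 0.999, so a difference between the sexes did not pass its own test. No gene passed in genotype by sex with edgeR, DESeq2 or limma-voom, and 528 had an unadjusted p under 0.05 with edgeR.

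Sox7 in females ran from 1.17 to 2.53 CPM (median 1.52) in alzheimer and from 0.560 to 2.04 CPM (median 1.19) in wildtype libraries, which overlapped. Its log2 fold change was 0.78 ± 0.249 with an adjusted p of 0.0873, against -0.14 ± 0.238 in males, and 0.93 ± 0.345 between the sexes (adjusted p 0.999). The 3 lowest female wildtype values were the 3 western libraries. With limma-voom the female adjusted p of Sox7 was 0.0486 and with the endothelial list as a covariate it was 0.0132. Notch1 in females had means of 58.7 ± 4.96 CPM with the alzheimer and 63.6 ± 3.88 CPM with the wildtype genotype, a difference of -0.13 ± 0.060 with an adjusted p of 0.291. Sox18 in females had means of 7.61 ± 1.72 CPM with the alzheimer and 9.11 ± 1.74 CPM with the wildtype genotype, a difference of -0.27 ± 0.104 with an adjusted p of 0.177.

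**Figure D4:**
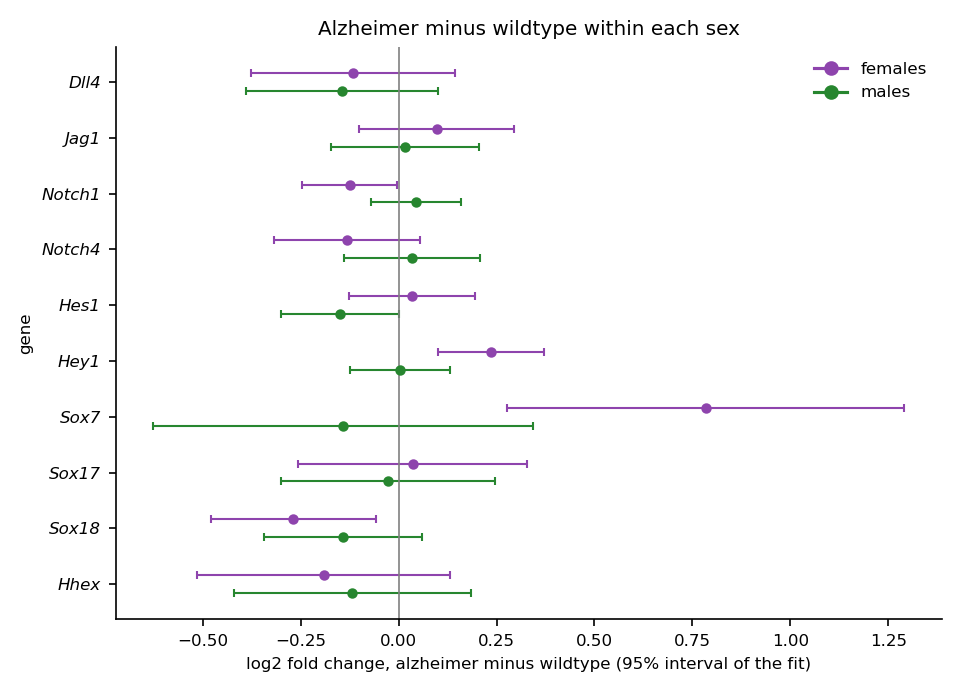
Alzheimer minus wildtype log2 fold change of the 10 genes in females and in males, with the 95% interval of the fit, females above males. Hey1 in females, at 0.24, is the member that passed the adjusted threshold; Sox7 in females has the widest interval.

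Sex as such moved no member past the threshold, in a comparison where 105 genes (0.837%) passed by edgeR; DESeq2 and limma-voom called 0 of 10 too. Notch1, the member with an unadjusted p under 0.05, averaged 61.1 ± 4.97 CPM in females (n = 14) and 55.9 ± 5.09 CPM in males (n = 16), a log2 fold change of 0.13 ± 0.041 with an adjusted p of 0.135. That difference was 0.0032 ± 0.037 in cohort 2 and 0.28 ± 0.045 in cohort 1, where its adjusted p was 0.0045. Genotype by diet and diet by sex by genotype called 0 genes with edgeR, DESeq2 and limma-voom, with 446 and 623 genes at an unadjusted p under 0.05 and no member among them. Between cohorts no member passed with edgeR, DESeq2 or limma-voom, 4 had an unadjusted p under 0.05, and 11 genes (0.0877%) passed by edgeR. Dll4 differed by 0.22 ± 0.088 (adjusted p 0.264) and Hes1 differed by -0.15 ± 0.055 (cohort 2 minus cohort 1, adjusted p 0.227).

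The rest of the pathway was examined through gene lists, in the diet-by-sex comparison first. There 1.23% of all genes tested passed, 0.781% higher and 0.446% lower. Of 5 further Notch ligands and receptors tested, 0 passed by edgeR and none had an unadjusted p under 0.05, with a median log2 difference of 0.10 against -0.0044 over all genes.

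Of 14 further Hes, Hey and other Notch target genes, 2 were lower and 0 higher, 13 of the 14 had a negative difference, and the median was -0.24. Hes5, a Hes repressor known mainly from neural progenitors and glia, averaged 10.3 ± 1.60 CPM in female western, 12.3 ± 2.03 CPM in female chow, 12 ± 1.5 CPM in male western and 9.13 ± 1.43 CPM in male chow libraries. Its difference between the sexes was -0.65 ± 0.147 with an adjusted p of 0.0185. Id1, an inhibitor of basic helix-loop-helix factors that BMP signals switch on in endothelium, differed by -0.51 ± 0.133 (adjusted p 0.0481). The list's other members did not pass, among them Nrarp, a feedback target of Notch, at -0.27 ± 0.132 and Hey2 at -0.24 ± 0.127.

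Of 22 other endothelial transcription factors, 2 were lower and 0 higher, with a median of -0.09. Foxc1, a forkhead factor of vessel and meningeal development, differed by -0.70 ± 0.157 and Foxq1, a forkhead factor of brain endothelium, by -0.91 ± 0.204 (adjusted p 0.0165 for each). Foxq1 averaged 5.82 ± 0.758 CPM in female western, 8.29 ± 2.09 CPM in female chow, 7.87 ± 1.86 CPM in male western and 5.89 ± 0.783 CPM in male chow libraries. Of 19 VEGF, angiopoietin and tip cell genes, 0 passed by edgeR, 7 of them had an unadjusted p under 0.05, and the median was -0.11.

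Of 30 endothelial identity genes, 2 were lower and 0 higher, 13 had an unadjusted p under 0.05, 26 were negative, and the median was -0.12. Cldn5, the main tight junction claudin of brain endothelium, differed by -0.26 ± 0.055 (adjusted p 0.0107) and Egfl7, a secreted endothelial factor, by -0.50 ± 0.113 (adjusted p 0.0178). The summed level of the whole list ran from 1965 to 2235 CPM in female western, 2105 to 2282 CPM in female chow, 2023 to 2297 CPM in male western and 1981 to 2223 CPM in male chow libraries, ranges that overlapped. With the list's mean log2 CPM as a covariate, the diet-by-sex difference was -1.16 ± 0.209 for Dll4, -0.78 ± 0.164 for Sox18 and -0.88 ± 0.258 for Hhex. The same covariate left -0.28 ± 0.16 for Jag1 and -0.49 ± 0.362 for Sox7.

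Glucocorticoid-responsive genes showed a diet-by-sex difference of the opposite sign. Of 13 tested, 7 were higher and 0 lower, all 13 were positive, and the median was 0.50; this list was chosen with that result known. Pdk4, a kinase that restrains pyruvate dehydrogenase, averaged 6.94 ± 2.10 CPM in female western, 3.09 ± 0.948 CPM in female chow, 2.58 ± 0.857 CPM in male western and 7.24 ± 2.95 CPM in male chow libraries, a difference of 2.66 ± 0.329. The serum and glucocorticoid kinase Sgk1 differed by 1.61 ± 0.228, the cell-cycle inhibitor Cdkn1a by 1.25 ± 0.203 and the NF-kappaB inhibitor Nfkbia by 1.04 ± 0.193. The summed level of the 14 listed genes with a row ran from 871 to 1080 CPM in female western, 644 to 974 CPM in female chow, 669 to 930 CPM in male western and 823 to 1101 CPM in male chow libraries. With the mean log2 CPM of this list as a covariate, the diet-by-sex difference was -1.13 ± 0.260 for Dll4, -0.66 ± 0.207 for Sox18 and -1.06 ± 0.324 for Hhex. That of Jag1 was -0.16 ± 0.195 and that of Sox7 -1.15 ± 0.536, while in the same fit 0 genes of all those tested passed.

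**Figure D5:**
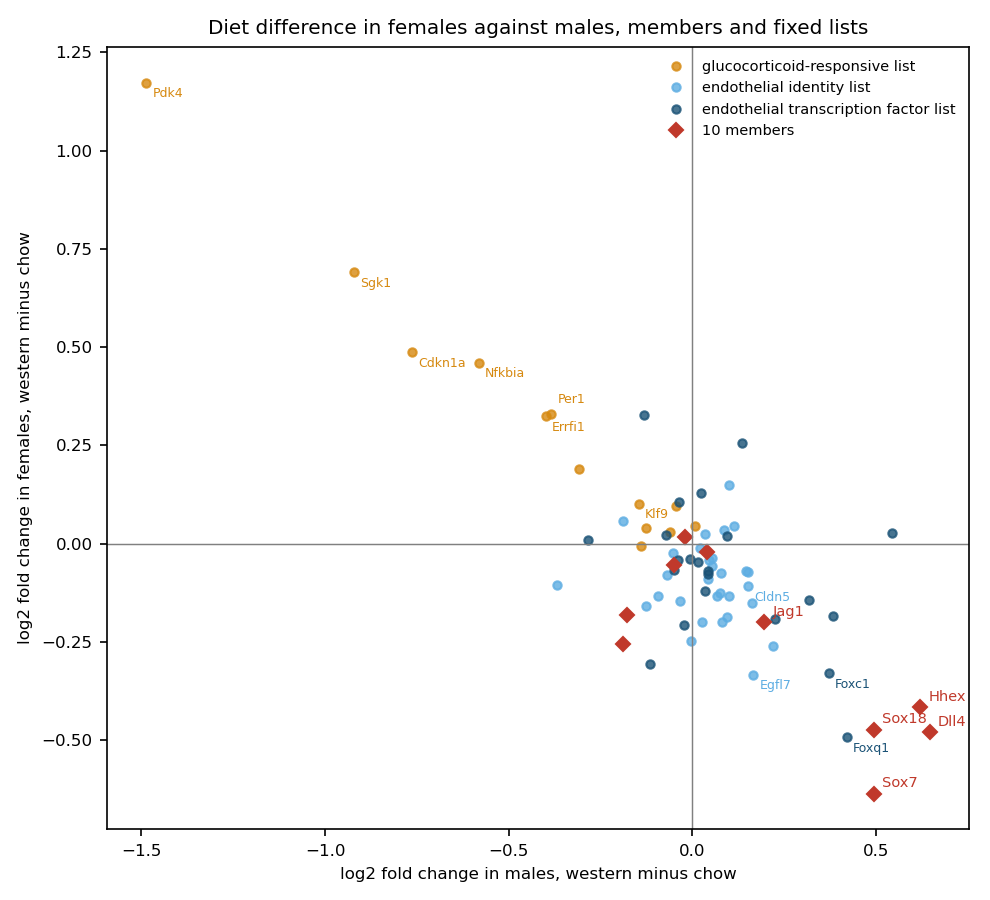
Western minus chow log2 fold change in females (vertical axis) against that in males (horizontal axis); diamonds are the 10 members, and circles the tested genes of the glucocorticoid-responsive, endothelial identity and endothelial transcription factor lists, with some genes named. Dll4, Sox18, Hhex and Sox7 lie at the lower right with Foxc1 and Foxq1, and Pdk4 and Sgk1 at the upper left.

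Several lists of other cell types also had negative medians in diet by sex, and those of microglia, oligodendrocytes, ependyma and fibroblasts lay further below 0 than that of endothelial identity genes. Of 12 astrocyte genes, 1 passed, Sox9 at -0.49 ± 0.103 (adjusted p 0.0113), 6 had an unadjusted p under 0.05 and the median was -0.01. Of 12 microglia genes, 1 passed, P2ry12 at -0.46 ± 0.108 (adjusted p 0.0238), 8 had an unadjusted p under 0.05, 11 were negative and the median was -0.17. Their summed level ran from 484 to 565 CPM in female western, 500 to 579 CPM in female chow, 470 to 550 CPM in male western and 430 to 521 CPM in male chow libraries. All 7 ependymal genes were negative with a median of -0.23, and 7 of 8 fibroblast and meningeal genes with a median of -0.26. All 10 oligodendrocyte genes were negative with a median of -0.21; 0 passed and 3 had an unadjusted p under 0.05. Their summed level ran from 8214 to 13437 CPM in female western, 10683 to 14225 CPM in female chow, 9607 to 14803 CPM in male western and 8291 to 13591 CPM in male chow libraries, and the part of these cell types in the results was not tested. No gene passed by edgeR among 15 pericyte and smooth muscle, 8 fibroblast and meningeal, 10 neuronal, 8 choroid plexus, 7 ependymal, 2 blood and 12 clock output genes; 1 fibroblast, 1 neuronal and 2 clock genes had an unadjusted p under 0.05. Choroid plexus markers summed to 76.7 CPM in male alzheimer chow replicate 30, the highest value; without it and the next 2 libraries the diet-by-sex difference was -1.11 ± 0.177 for Dll4, -0.98 ± 0.161 for Sox18 and -1.06 ± 0.246 for Hhex.

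For genotype, calls were spread over vascular and other cell type lists. Each median is read against 0.0020 over all genes. Each count is read against 8.03% of all genes tested, 4.14% higher and 3.89% lower, and a count near that share is no result about its list. Of 30 endothelial identity genes, 4 were lower in alzheimer libraries and 0 higher, with a median of -0.08: Eng, a TGF-beta co-receptor, differed by -0.15 ± 0.045, the transporter Slco1c1 by -0.14 ± 0.031, the VEGF receptor Flt1 by -0.11 ± 0.034 and Cldn5 by -0.11 ± 0.027. Their summed level ran from 1965 to 2254 CPM in alzheimer and from 1981 to 2297 CPM in wildtype libraries. Microglia genes had a median of the same size, -0.08, with 5 of 12 lower and 0 higher, led by the integrin Itgam at -0.40 ± 0.049 and followed by Aif1 at -0.19 ± 0.043, C1qa at -0.17 ± 0.034 and C1qb at -0.14 ± 0.039. Their summed level ran from 430 to 525 CPM in alzheimer and from 457 to 579 CPM in wildtype libraries, and its part in the results was not tested. Of 12 astrocyte genes, 3 were lower and 1 higher, with a median of -0.05. Gfap, the intermediate filament of astrocytes, was higher by 0.17 ± 0.032, and S100b differed by -0.13 ± 0.021, Slc1a3 by -0.12 ± 0.028 and Aldoc by -0.08 ± 0.023. Of 10 oligodendrocyte genes 9 were negative and 1 passed, the myelin gene Mbp at -0.19 ± 0.059, and the median was -0.06. Of 10 neuronal genes, Syt1 was higher by 0.10 ± 0.027 and Wfs1 lower at -0.20 ± 0.045, and of 12 clock output genes Npas2 was lower at -0.15 ± 0.043. No gene passed by edgeR among 22 endothelial transcription factors, 8 fibroblast and meningeal, 8 choroid plexus, 7 ependymal, 2 blood and 13 glucocorticoid-responsive genes; 4, 1 and 1 of the first 3 lists had an unadjusted p under 0.05, and 0 of the others.

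Within the pathway and the vessel wall, genotype calls went in both directions, as they did over all genes tested (4.14% higher, 3.89% lower). Notch3, the receptor of vascular smooth muscle and pericytes, was the 1 called of 5 further ligands and receptors and differed by -0.20 ± 0.060 (adjusted p 0.0344), with means of 25.7 ± 4.22 CPM over alzheimer and 29.4 ± 2.97 CPM over wildtype libraries. Of 14 Notch target genes, 2 were lower and 1 higher, with a median of -0.09. Heyl, a Notch3 target in mural cells, differed by -0.21 ± 0.049 (adjusted p 0.0048), with means of 15.7 ± 1.77 CPM over alzheimer and 18.1 ± 1.68 CPM over wildtype libraries. The cyclin gene Ccnd1 differed by -0.15 ± 0.046 and Hes6 by 0.15 ± 0.044. Of 19 VEGF, angiopoietin and tip cell genes, 2 were higher and 1 lower, with a median of -0.10. The neuropilins Nrp1 and Nrp2, co-receptors of VEGF and semaphorins, differed by 0.14 ± 0.030 and 0.15 ± 0.034, and the chemokine Cxcl12 by -0.19 ± 0.036. Of 15 pericyte and smooth muscle genes, 2 were lower and 0 higher, Abcc9 by -0.33 ± 0.073 and Rgs5 by -0.24 ± 0.055. The summed level of that list ran from 177 to 237 CPM in alzheimer and from 191 to 260 CPM in wildtype libraries, and its part in the differences of Notch3 and Heyl was not tested.

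For sex, 105 of all genes tested (0.837%) passed, 65 higher and 40 lower in females. The lists reported here held 5 of them, all higher in females, and nothing is read from that number or direction. Notch2 differed by 0.17 ± 0.041 (edgeR adjusted p 0.0399), and the endothelial identity genes Eng by 0.19 ± 0.045 and Ptprb by 0.16 ± 0.037. The transcription factor Tcf4 differed by 0.11 ± 0.027 and the astrocyte gene Sox9 by 0.24 ± 0.052.

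The genes whose level followed the picked members most closely were found by Pearson correlation of log2 CPM over the 30 libraries, among 11060 genes; the points share libraries and depth, and the r with group and cohort means removed is given beside each. For Dll4 the highest were Spry2, an inhibitor of receptor tyrosine kinase signalling (r = 0.76, and 0.32 after removal), Tlr2 (0.72, 0.34), Syf2 (0.72, 0.62) and Hhex (0.70, 0.28), followed by Ier2 (0.70, 0.49), C1ql1 (0.68, 0.50), Nkx2-2 (0.67, 0.41) and Kcnj2 (0.67, 0.22). For Sox18 they were Rpl18 (0.76, 0.44), Sox2 (0.75, 0.32), Hes5 (0.74, 0.51) and Aif1 (0.73, 0.61), followed by Nkx6-2 (0.72, 0.44), Thsd1 (0.71, 0.40) and Rpl23a (0.71, 0.22). For Hhex they were Cldn5 (0.72, 0.53), Dll4 (0.70, 0.28), Spry2 (0.70, 0.23) and Crip2 (0.67, 0.59), followed by Itm2a (0.66, 0.42), Rasl11a (0.66, 0.35), Psmc5 (0.64, 0.34) and Slco1a2 (0.64, 0.31). Sox18 stood at rank 18 for Dll4, with r = 0.62 over the libraries and -0.17 once group and cohort means were removed. For Sox18 and Hhex these values were 0.52 and -0.20. Dll4, Sox18 and Hhex were picked for a diet pattern in these same libraries. The r before removal, among them and with other genes of that pattern, follows in part from the pick. These ranks are therefore a description and no separate support.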

How the data were processed

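Polyadenylated RNA was measured per library with the NEB Ultra II kit, per the labels. The deposited table holds whole-number read counts per gene; per the submitters' processing notes, cutadapt and STAR 2.7.0a were used. No source used here states the counting tool, strand setting, build or annotation. From these counts, genes were kept by filterByExpr (minimum count 10, total 15), scaled by TMM, and fitted over all 30 libraries with edgeR 4.0.16 (R 4.3.3), group and cohort as terms, quasi-likelihood F test, Benjamini-Hochberg adjusted p under 0.05 as the threshold. SE is the log2 fold change over the root of F. CPM are TMM-adjusted. The coding of the genotype and diet-by-sex comparisons was checked on simulated counts. Those had a common spread for all genes and no cohort effect, so the spread of single members was not covered.

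The members and lists were chosen with earlier results of these data known. All 10 members are named; from 17 gene lists, up to 4 called genes a list and comparison by size, with Nrarp and Hey2 added after their values were seen; and the 8 genes most correlated with each picked member (mean log2 CPM of at least 1). A list of Notch processing genes and 1 correlated gene are not reported here. Alternatives were other scaling, filters, DESeq2 1.42.0, limma-voom 3.58.1, no cohort term, each cohort, 2 list covariates, and leaving out libraries.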

Additional observations from a re-analysis of the deposited data

Results flagged for a closer look

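The diet-by-sex differences of Dll4 (-1.12), Sox18 (-0.97) and Hhex (-1.04, female minus male, log2) stand here because their western minus chow differences had opposite signs in the 2 sexes. The genes were picked for that contrast, so no test is given. Among 60 sets of libraries of 1 gene and 1 group that were large enough to examine, 1 held a library far from the others: Sox18 in female alzheimer chow replicate 19 was 10.9 CPM, against 7.57 to 8.14 CPM in the other 3. Chance alone would mark about 1 in 20 such sets. Without that library the Sox18 difference was -0.91 for diet by sex and -0.42 for diet in females.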

How the results depend on the processing

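No paired analysis was possible because the library numbers in the labels run on over all groups and no 2 groups share one. Of 1877 member values recomputed under other settings, 1781 stayed the same, 63 changed sign, 24 lost and 8 gained a call. For tested values, the same means that direction and side of the threshold were kept. For the diet and diet-by-sex values of Dll4, Sox18 and Hhex, it means the same sign and a shift within the gene's residual SD. Those values were used to pick the genes, so their part of the count is no support. A further 1, Sox18 diet by sex with the glucocorticoid covariate (-0.66), moved without a test. Unless a setting's own construction shows it (fewer libraries or genes), the cause of a change was not tested.

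Genes called, main value first, were for genotype 1007, against 72 in cohort 1, 573 in cohort 2 and 183 with the endothelial covariate; for genotype in males 157, against 247 with DESeq2, 28 in cohort 1, 90 with the endothelial covariate and 103 without the 3 libraries highest in choroid plexus markers; and for genotype in females 322, against 47, 141, 40 and 188 for cohort 1, cohort 2, that covariate and those libraries. For sex they were 105, against 254 with no filter, 241 with DESeq2, 205 with limma-voom, 17 in cohort 2, 37 with the endothelial covariate and 23 without the choroid libraries. For diet they were 1, against 3 with DESeq2, 19 in cohort 1, 0 in cohort 2 and 0 without the choroid libraries; for diet in males 16, against 71 with no filter, 62 with DESeq2, 0 in cohort 2 and 0 with the glucocorticoid covariate; for diet in females 23, against 60, 56, 11 with no cohort term, 2 in cohort 2, 0 with the endothelial and 1 with the glucocorticoid covariate. For diet by sex they were 154, against 242 with no filter, 268 with DESeq2, 35 in cohort 1, 32 in cohort 2, 19 with the endothelial and 0 with the glucocorticoid covariate. Cohort 1 alone called 12 genes for diet by sex by genotype, 9 for genotype by sex and 12 for genotype by diet, each 0 in all libraries. For cohort they were 11, against 113 with no filter, 137 with DESeq2, 5 with limma-voom, 0 and 80 with the endothelial and glucocorticoid covariates and 0 without the choroid libraries. Of members, genotype in females called 2 with limma-voom, and 0 with no cohort term, in cohort 1 and without the choroid libraries; with the endothelial covariate it called Sox7 in place of Hey1, and in cohort 2 Notch1 (-0.22, adjusted p 0.0434); sex called 1, Notch1, in cohort 1.

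Leaving out 1 library at a time, genes called ranged over 817 to 1270 for genotype, 97 to 311 for genotype in males, 164 to 356 for genotype in females, 19 to 181 for sex, 1 to 2 for diet, 9 to 53 for diet in males, 1 to 36 for diet in females, 79 to 249 for diet by sex and 0 to 43 for cohort; members called ranged over 0 to 1 for genotype, genotype in females and diet by sex.

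Some differences changed sign, and not all of them were small. For diet by sex, Notch1 was 0.0216 in cohort 2, Notch4 0.0081 with limma-voom, 0.0280 with no cohort term, 0.21 in cohort 2 and 0.0109 with the endothelial covariate, Hes1 0.0198 in cohort 1 and 0.0299 without the choroid libraries, Hey1 -0.13 in cohort 2 and -0.0703 with the endothelial covariate, and Sox17 0.19 and 0.21 under the same 2 settings. Sox7 diet in males, 0.49 in all libraries, was -0.0413 in cohort 2. Notch4 diet in males, -0.18 in all libraries, was 0.0506 with the glucocorticoid covariate. Jag1 diet in females, -0.20 in all libraries, was 0.0770 in cohort 1. Genotype in males was -0.0211 with limma-voom, -0.0326 in cohort 2 and -0.0307 with the endothelial covariate for Hey1, and 0.0693 with that covariate for Sox7. With 1 library left out, the diet-by-sex difference ranged over -0.0564 to 0.0698 for Notch4, -0.0613 to 0.0388 for Hes1 and -0.17 to 0.0195 for Sox17, and genotype in males over -0.0361 to 0.0360 for Hey1 and -0.30 to 0.0504 for Sox7. For Dll4, Sox18 and Hhex it ranged over -1.24 to -1.04, -1.04 to -0.91 and -1.16 to -0.93. Sox7 had only 6 to 48 counts a library, and the part of depth in its changes was not tested.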
